A study of Mus musculus with 6 samples.

Results

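The piRNA pathway genes are 10 germline genes, Ddx4, Mael, Piwil1, Piwil2, Piwil4, Tdrd1, Tdrd5, Tdrd9, Mov10l1 and Asz1, chosen by gene symbol. All 10 were on the array, with 11 of its 26423 probes, among 19084 genes with a symbol. They were followed on 6 single-colour (Cy5) arrays of gonadal cells of ICR mice, 2 arrays in each of 3 groups. PGC colonies were grown from gonadal cells of 67 embryos at E11.5, and GSC colonies from testicular cells of 80 mice between birth and P2. Both were cultured for 7 days at 5% O2 on laminin (200 ng/cm2) with EGF (10 ng/ml), insulin, transferrin and selenium, and the colonies were picked before RNA was extracted. CD49f+ sorted cells were taken from the testes of 100 mice of the same postnatal age with magnetic beads against CD49f, the integrin subunit of the gene Itga6, and were not cultured. The labels give them physiological hypoxia with no oxygen value, spell GSC as glandular stem cells, and carry no genetic change in any group. Animals were pooled within each group, and the labels leave unsaid whether the 2 arrays within a group stem from different cell preparations. The p-values therefore rest on a spread between arrays that may be purely technical.

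piRNAs are small RNAs that PIWI proteins carry in germ cells, where they silence transposons by cutting their transcripts and, in fetal male germ cells, by directing DNA methylation to their copies. In mice, PIWI proteins work in cytoplasmic granules next to mitochondria, held there by Tudor-domain proteins and membrane anchors. The loss of most of these genes leaves male mice sterile, and the genes are known as markers of the germ line.

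Values are intensities on a log2 scale after normalization between arrays. No detection calls were at hand, so the 30th percentile of each array, 7.82 on this scale, served as the mark under which a probe was treated as dim. Genes that reached it on 2 or more of the 6 arrays, 15459 in all, were tested. Of the members, Ddx4, Mael, Piwil2, Tdrd5 and Asz1 passed, and Piwil1, Piwil4, Tdrd1, Tdrd9 and Mov10l1 did not. The correlation across probes, which are not independent replicates, was 0.992, 0.983 and 0.992 within the pairs of PGC colonies, GSC colonies and sorted cells, and 0.915 to 0.979 between arrays of different groups.

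Germ cell content bears on every value that follows, since in RNA of mixed cells fewer germ cells and less RNA per germ cell cannot be told apart. Of 26 germ cell genes on the array, 12 were dim on either PGC colony array, 7 or 8 on the GSC colony arrays and 9 or 10 on the sorted arrays. Dppa3, Tfap2c, Taf4b, Sycp3, Stra8 and Sall4 were dim on all 6, among them defining genes of primordial germ cells (Dppa3, Tfap2c) and of meiosis (Sycp3, Stra8). Of the 26, 18 passed the filter. Dnd1 averaged 9.93 in PGC colonies, and Kit and Spo11 averaged 8.95 and 8.70 in GSC colonies. The 26 genes summed to 13.53 to 13.58 (log2) on the PGC colony arrays, 13.96 to 14.12 on the GSC colony arrays and 13.94 to 13.96 on the sorted arrays. Fibroblast and mesenchyme genes, 20 on the array, summed to 19.23 to 19.26 (log2) on the PGC colony arrays, 19.72 to 19.75 on the GSC colony arrays and 17.05 to 17.22 on the sorted arrays. Sertoli cell genes, 23 on the array, summed to 18.14 to 18.23, 18.68 to 18.71 and 20.34 to 20.41 in the same order of groups, and 13 macrophage and leukocyte genes to 13.22 to 13.26, 12.69 to 12.73 and 17.08 to 17.14. No Sertoli cell gene was dim on all 6 arrays, and of the fibroblast genes Col1a1 and Fbln1 were. The part of these other cell types in the members' differences was not tested.

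The sequences just before the genes' starts are shown because Mael, Asz1 and a further pathway gene, Gtsf1, ran in the same order over the groups, with Ddx4 and Tdrd9 as members whose values did not separate the 3 groups. RefSeq's promoter table (build GRCm38.p6) holds windows from 250 bases before to 50 bases after a start, and 9 of the 10 members matched, all but Piwil2. Each line runs 5′ to 3′ on the gene's strand, and capitals mark matches, on either strand, to the E-box CACGTG, the MYB hexamer TAACGG and the E2F core TTCCCGC. A-MYB, the factor of the gene Mybl1, is known to drive piRNA pathway genes in mouse spermatocytes, and E-box and E2F sites are known from germline genes that are silenced in other cells.
Mael (chr1:166238695-166238994, minus strand): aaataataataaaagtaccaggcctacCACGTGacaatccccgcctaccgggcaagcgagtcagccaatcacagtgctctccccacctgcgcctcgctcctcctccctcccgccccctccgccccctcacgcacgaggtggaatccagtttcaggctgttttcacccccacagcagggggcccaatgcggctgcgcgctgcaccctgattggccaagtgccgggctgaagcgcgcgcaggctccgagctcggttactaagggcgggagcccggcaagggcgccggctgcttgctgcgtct
Asz1 (chr6:18109012-18109311, minus strand): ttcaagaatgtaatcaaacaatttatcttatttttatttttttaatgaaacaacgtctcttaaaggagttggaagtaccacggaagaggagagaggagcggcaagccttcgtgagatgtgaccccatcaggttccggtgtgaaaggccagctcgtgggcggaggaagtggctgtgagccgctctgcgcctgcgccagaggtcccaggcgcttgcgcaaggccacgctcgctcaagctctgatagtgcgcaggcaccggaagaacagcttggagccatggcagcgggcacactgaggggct
Gtsf1 (chr15:103430378-103430677, minus strand): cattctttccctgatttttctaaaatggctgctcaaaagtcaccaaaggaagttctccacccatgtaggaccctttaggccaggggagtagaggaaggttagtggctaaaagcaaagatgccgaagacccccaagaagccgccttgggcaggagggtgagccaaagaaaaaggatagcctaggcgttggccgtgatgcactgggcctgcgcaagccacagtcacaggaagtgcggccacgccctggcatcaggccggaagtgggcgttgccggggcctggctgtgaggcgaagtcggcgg
Ddx4 (chr13:112652261-112652560, minus strand): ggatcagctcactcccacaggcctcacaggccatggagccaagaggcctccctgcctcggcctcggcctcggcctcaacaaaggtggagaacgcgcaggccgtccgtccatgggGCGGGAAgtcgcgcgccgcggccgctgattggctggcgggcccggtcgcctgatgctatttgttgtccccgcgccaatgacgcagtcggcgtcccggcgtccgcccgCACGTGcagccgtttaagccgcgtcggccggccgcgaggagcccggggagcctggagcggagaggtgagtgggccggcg
Tdrd9 (chr12:111971309-111971608, plus strand): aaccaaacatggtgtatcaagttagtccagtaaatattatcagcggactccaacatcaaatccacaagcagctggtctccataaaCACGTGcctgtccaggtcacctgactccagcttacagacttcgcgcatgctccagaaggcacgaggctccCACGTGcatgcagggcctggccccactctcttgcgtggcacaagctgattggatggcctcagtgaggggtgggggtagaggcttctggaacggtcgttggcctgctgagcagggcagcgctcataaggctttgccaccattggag

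An E-box stood in at least 1 window of 6 of the 9 members (66.7%), Ddx4, Mael, Piwil1, Tdrd1, Tdrd9 and Mov10l1, against 8.09% of the 27025 genes of the table and 9.9% of those on the array. The share was 28.6% among other piRNA pathway genes and 20% among germ cell genes. Among somatic counterparts, such as Argonaute and Dicer genes, it was 6.25%. Tdrd9 and Piwil1 held 2 E-boxes each, and the first base of the E-box lay 223 bases before the start in Mael and 29 bases before it in Ddx4. The MYB hexamer was found in 2 of 9 members, Piwil1 and Mov10l1, against 3.15% of all genes, and the E2F core in 2 of 9, Ddx4 and Tdrd5, against 5.29%. Of genes on the array, 3.68% held the MYB hexamer and 7.62% the E2F core. These shares were 9.52% and 0% among other piRNA pathway genes, and 5% and 10% among germ cell genes. Somatic counterparts held them in 12.5% and 6.25%, so the MYB share was not particular to the pathway lists. The members' matches did not overlap, apart from 1 E-box of Tdrd1 that 2 of its overlapping windows share. Asz1 and Gtsf1 held none of the 3 motifs, while Mael held an E-box. Members were richer in CpG than the whole table, with a median of 20 in the richest window against 8 over all genes, and close to the 17 of genes on the array.

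Among the PIWI genes, Piwil2 (MILI, which makes and uses piRNAs from fetal stages on) was bright on every array, and none of its differences passed the test. Its probe mMC012305 read 14.27 and 13.75 in PGC colonies, 14.34 and 14.29 in GSC colonies, and 14.25 and 13.83 in sorted cells. These values lay at the 94.2nd to 96.5th percentile of the arrays, and both GSC colony values stood just above the other 4. Its differences did not pass limma's test, at -0.31 ± 0.21 (SE, n = 2 per group) in PGC against GSC colonies (adjusted p = 0.39), with an interval of -0.83 to 0.21. Against sorted cells they were -0.03 ± 0.21 in PGC colonies (adjusted p = 0.93) and 0.28 ± 0.21 in GSC colonies (adjusted p = 0.33), and these intervals reached from -0.55 to 0.49 and from -0.24 to 0.80. Without normalization between arrays the last difference became 0.97 (adjusted p = 0.0056).

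The other PIWI genes were dim on all 6 arrays. Piwil4 (MIWI2, which takes piRNAs into the nucleus of fetal male germ cells) read 7.63 and 7.43 in PGC colonies, 7.69 and 7.63 in GSC colonies, and 7.38 and 7.11 in sorted cells. Both sorted values lay below the 4 of the colonies, all of them under 7.82. Piwil1 (MIWI, of meiotic and later male germ cells) read 7.46 and 7.47 in PGC colonies, 7.56 and 7.16 in GSC colonies, and 7.01 and 7.42 in sorted cells, and GSC colonies overlapped both other groups. No fold is given for genes that are dim in both groups compared.

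Ddx4 (VASA, an RNA helicase of the germ cell granule) was above the dim mark on all 6 arrays, and none of its differences passed the test. It read 9.96 and 9.72 in PGC colonies, 10.24 and 10.27 in GSC colonies, and 10.10 and 9.89 in sorted cells, or 1063 and 845, 1332 and 1366, and 802 and 721 as deposited. Both GSC colony values were above the other 4, and those of PGC colonies and sorted cells overlapped. The difference of PGC from GSC colonies was -0.41 ± 0.13 (SE; limma adjusted p = 0.096, interval -0.74 to -0.09). PGC colonies differed from sorted cells by -0.16 ± 0.13 (adjusted p = 0.40) and GSC colonies by 0.26 ± 0.13 (adjusted p = 0.17). With no normalization the PGC colony difference became 0.27 (adjusted p = 0.13) and the GSC colony difference 0.75 (adjusted p = 0.0038).

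**Figure D1:**
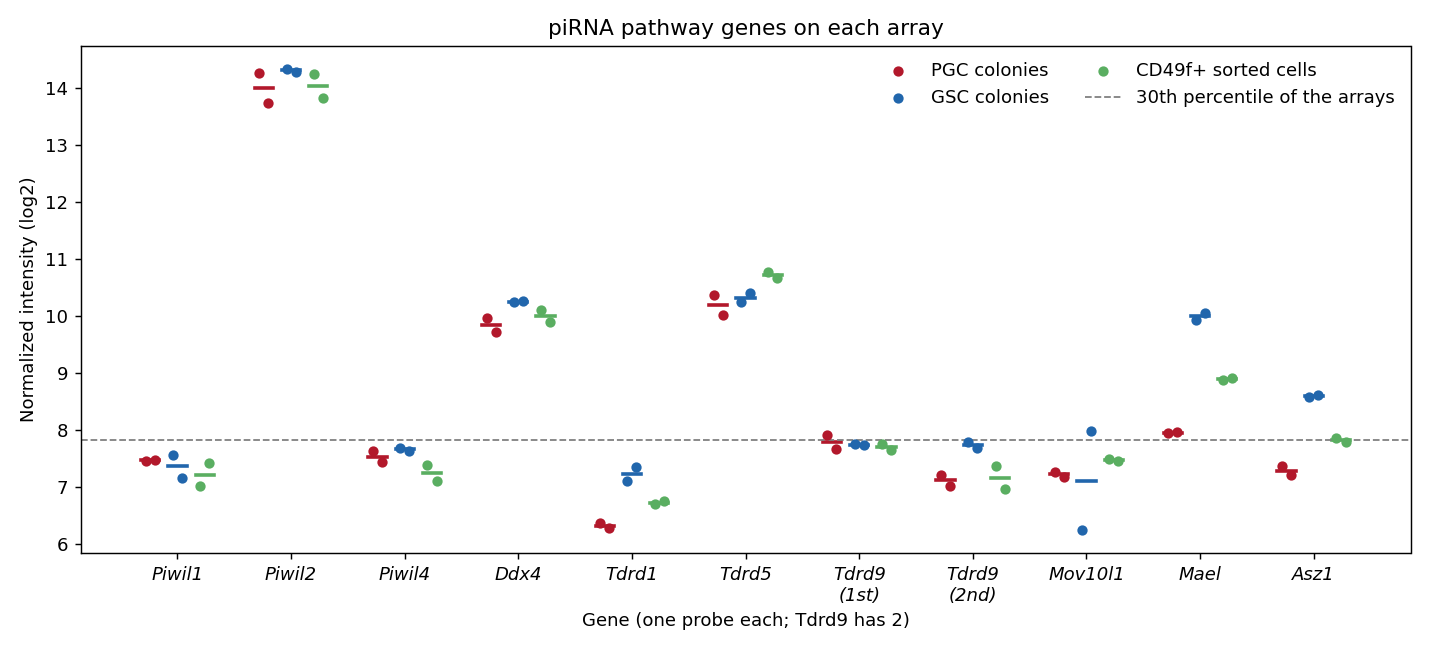
Normalized intensity (log2, vertical axis) of each member's probe on the 2 arrays of PGC colonies, GSC colonies and CD49f+ sorted cells (points), with group means as short bars and the 30th percentile of the arrays as a dashed line. Mael and Asz1 separate the 3 groups, Ddx4, Piwil2 and Tdrd5 overlap between at least some groups, and the rest lie under the line apart from 1 array each of Mov10l1 (7.98) and Tdrd9 (7.91); of the probes of Tdrd9, the one marked 1st stands for the gene.

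Mael (maelstrom, needed for transposon silencing and for the piRNA granules) was the member with the widest range. In PGC colonies it read 7.94 and 7.96, in GSC colonies 9.93 and 10.06, and in sorted cells 8.88 and 8.92. As deposited these were 240 and 207, 1077 and 1169, and 325 and 342. The 3 groups did not overlap, with GSC colonies highest and PGC colonies, at the 32.2nd and 32.4th percentile, just above the dim mark. Mael fell by 2.04 ± 0.11 in PGC colonies against GSC colonies (SE; limma adjusted p = 0.00013), which is 4.12-fold lower. It fell by 0.95 ± 0.11 in PGC colonies against sorted cells (adjusted p = 0.00058) and rose by 1.09 ± 0.11, or 2.13-fold, in GSC colonies against sorted cells (adjusted p = 0.00031).

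Asz1 (GASZ, an anchor of the granule on the mitochondrial surface) ran in the same order. It read 7.36 and 7.21 in PGC colonies, 8.57 and 8.62 in GSC colonies, and 7.86 and 7.79 in sorted cells. As deposited, PGC colonies (149 and 97.1) overlapped sorted cells (137 and 126). PGC colonies were dim on both arrays and sorted cells on 1. Without the GSC colony arrays, where it was high, the gene would not have passed the filter. The filter thus favoured its direction in both comparisons with GSC colonies. With no filter these differences also passed limma's test (adjusted p = 0.00091 between the colony groups and 0.0021 against sorted cells). In PGC colonies Asz1 lay at least 1.71-fold under GSC colonies (measured means 7.28 ± 0.11 and 8.59 ± 0.04, SD, n = 2; limma adjusted p = 0.00082). Against sorted cells (7.83 ± 0.05) PGC colonies lay at least 1.01-fold lower (adjusted p = 0.0079), and the gene rose by 0.76 ± 0.11 (SE), or 1.7-fold, in GSC colonies (adjusted p = 0.0018). The call between PGC colonies and sorted cells was lost without normalization between arrays, where the difference was -0.20 (adjusted p = 0.21), and without sorted replicate 1 (-0.52, adjusted p = 0.058).

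Tudor-domain proteins bind methylated arginines on PIWI proteins and hold the pathway together. Tdrd5, which acts in the male germ cell granule, was highest in sorted cells: it read 10.37 and 10.02 in PGC colonies, 10.24 and 10.41 in GSC colonies, and 10.77 and 10.67 in sorted cells. Both sorted values were above the 4 of the colonies, which overlapped each other. Tdrd5 fell by 0.53 ± 0.15 in PGC colonies against sorted cells (SE; limma adjusted p = 0.03). GSC colonies differed from sorted cells by -0.39 ± 0.15 (adjusted p = 0.077), and PGC from GSC colonies by -0.13 ± 0.15 (adjusted p = 0.61). The call was lost without PGC colony replicate 2 (-0.35, adjusted p = 0.095), without sorted replicate 1 or 2 (-0.48 and -0.58, adjusted p = 0.14 and 0.086) and with no normalization (-0.07, adjusted p = 0.72), and that last setting turned the difference of GSC colonies from sorted cells to 0.13.

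Tdrd1 (which joins PIWI proteins in the fetal granule) was dim on all arrays, yet its values kept the order of Mael and Asz1: 6.37 and 6.27 in PGC colonies, 7.11 and 7.34 in GSC colonies, and 6.70 and 6.75 in sorted cells. After normalization the groups did not overlap, from the 2.5th percentile of an array in PGC colonies to the 21.2nd in GSC colonies. As deposited, PGC colonies (54.5 and 22.8) overlapped sorted cells (34.5 and 28.5). At this brightness the size of a difference depends on how background is handled, so none is given.

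Tdrd9 (a Tudor-domain helicase partnered with Piwil4) had 2 probes that disagreed. On probe PH_mM_0013170, the brighter, it read 7.91 and 7.66 in PGC colonies, 7.75 and 7.73 in GSC colonies, and 7.75 and 7.64 in sorted cells, and the groups overlapped. On probe mMC012734 it read 7.21 and 7.02, 7.79 and 7.68, and 7.36 and 6.96, with both GSC colony values above the others. Only 1 of these 12 values reached the dim mark.

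Mov10l1 (a helicase that feeds precursor transcripts into the pathway) differed most between arrays of 1 group. GSC colonies read 6.24 and 7.98, against 7.26 and 7.18 in PGC colonies and 7.49 and 7.45 in sorted cells. The GSC colony pair, with an SD of 1.23, spanned all the other values.

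**Figure D2:**
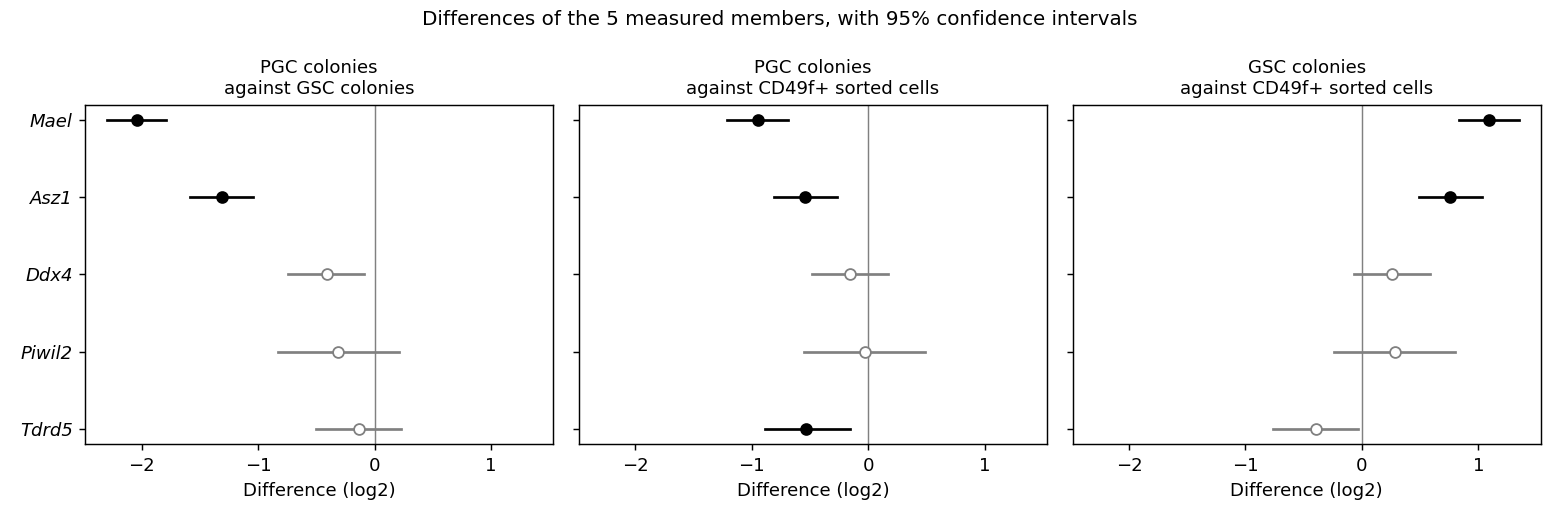
Difference between groups (log2, horizontal axis) of the 5 members that passed the filter, in the 3 comparisons, with 95% confidence intervals from limma as lines; filled points passed at adjusted p under 0.05. Mael and Asz1 lie left of 0 in both comparisons of PGC colonies and right of 0 in GSC colonies against sorted cells, and the intervals of Piwil2 cross 0 in all 3.

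Read across the list, 2 of the 5 tested members were lower in PGC than in GSC colonies and 0 higher, where 15.1% of all tested genes changed (7.98% lower and 7.08% higher). In PGC colonies against sorted cells 3 were lower and 0 higher, beside 46% of all genes changed (23.2% lower, 22.8% higher). In GSC colonies against sorted cells 2 were higher and 0 lower, beside 47.1% changed (22.5% higher, 24.5% lower). Against sorted cells so many genes changed that the members' shares say little by themselves. The 3 members lower in PGC colonies than in sorted cells were 1 without sorted replicate 1. The comparisons share their arrays, so they are not independent of one another, and the 5 dim members are not in these counts. In both comparisons with GSC colonies the members counted were Mael and Asz1. Asz1 would not have passed the filter without the GSC colony arrays, so the filter favoured its direction there.

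An order of groups without overlap, GSC colonies over sorted cells over PGC colonies, was looked for after the values of Mael were seen. It held for 3 of the 10 members (Mael, Asz1 and Tdrd1) and for 2.16% of the 19084 genes on the array. Mael set the order that was looked for, so its own place among the 3 was given beforehand. Tdrd1 was dim on all 6 arrays. As deposited, with no scaling between groups, PGC colonies overlapped sorted cells for both Asz1 and Tdrd1, and only Mael kept the full order. Both GSC colony arrays lay above all 4 others for 6 members, these 3 with Ddx4, Piwil2 and Piwil4, beside 15% of all genes. Of the 6, Tdrd1 and Piwil4 were dim on every array. For Piwil4 the margin was below the digits shown, with 7.63 on both GSC colony replicate 2 and PGC colony replicate 1. As deposited these read 140 and 186, the other way round. Among 26 other piRNA pathway genes on the array 6 had the full order and 12 had GSC colonies on top, and among 16 somatic counterparts, such as Argonaute and Dicer genes, 0 and 0 did. Lists of other cells held it too: GSC colonies were on top for 8 of 26 germ cell genes, 12 of 20 fibroblast and mesenchyme genes and 6 of 9 peritubular myoid and smooth muscle genes, and the full order held for 5, 1 and 2 of these. These counts are descriptions with no test.

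Of 29 other piRNA pathway genes, 26 were on the array and 21 passed the filter. In PGC against GSC colonies 6 fell and 0 rose, with a median difference of -0.12 beside 0.01 over all tested genes. The share called was 28.6%, beside 15.1% of all tested genes. The 6 were Gtsf1, Tex19.1, Gpat2, Dnmt3l, Nanos3 and Tex15. The count and share include Dnmt3l, which passed the filter only through the GSC colony arrays, so that its direction was set by the filter. Without GSC colony replicate 1 the count was 3. Gtsf1, a zinc-finger cofactor of PIWI proteins, read 7.74 and 7.59 in PGC colonies, 9.21 and 9.24 in GSC colonies, and 8.43 and 8.30 in sorted cells. It was at least 2.65-fold lower in PGC than in GSC colonies (limma adjusted p = 0.00044). Tex19.1, which limits retrotransposons in germ cells, read 8.12 and 8.06 in PGC colonies, 9.33 and 9.23 in GSC colonies, and 8.56 and 8.58 in sorted cells, and fell by 1.19 ± 0.10 in PGC against GSC colonies (SE; adjusted p = 0.00093). Both thus had the order of Mael, as the plot of levels relative to each gene's mean shows.

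In GSC colonies against sorted cells 9 of the 21 rose and 3 fell, with a median difference of 0.26 beside -0.01 over all tested genes. The share called was 57.1%, beside 47.1% of all tested genes. Tcfl5, a transcription factor of spermatocytes, was at least 2.98-fold higher (limma adjusted p = 6.7e-05). Dnmt3l, the cofactor of DNA methylation in fetal male germ cells, was at least 1.28-fold higher (adjusted p = 0.00052). Its sorted arrays read 6.89 and 7.00, and it passed the filter only through the 2 GSC colony arrays, where it was high. The direction of Dnmt3l was thus set by the filter in both comparisons with GSC colonies. Pld6, the mitochondrial enzyme that helps form piRNA ends, was at least 2.83-fold lower, with 7.54 and 7.80 in GSC colonies and 9.32 and 9.33 in sorted cells (adjusted p = 0.00013). Pld6 was dim on all 4 colony arrays and passed the filter only through the 2 sorted arrays, where it was high, so its direction was set by the filter in both comparisons with sorted cells. Mybl1, which encodes A-MYB, fell by 1.22 ± 0.12 (SE; adjusted p = 0.00033). Kif17, Nanos3, Gpat2, Gtsf1, Tex15, Tex19.1 and Ddx25 were the others that rose, and Wdr77, a partner of the arginine methylase Prmt5, the other that fell. Without normalization between arrays 15 rose and 3 fell (median 0.63).

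PGC colonies against sorted cells gave 3 genes higher and 5 lower of the 21, with a median of -0.01 beside -0.02. The share called was 38.1%, beside 46% of all tested genes. Tcfl5 was at least 2.44-fold higher (limma adjusted p = 0.00016), and the testis helicase gene Ddx25 rose by 1.33 ± 0.13 (SE; adjusted p = 0.0003). Pld6 was at least 2.84-fold lower (adjusted p = 0.0001), and Mybl1 fell by 1.15 ± 0.12 (adjusted p = 0.00044). The count of 8 was 5 without either sorted array. Without normalization 10 rose and 2 fell, with a median of 0.41, so the balance of directions rests on the scaling.

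**Figure D3:**
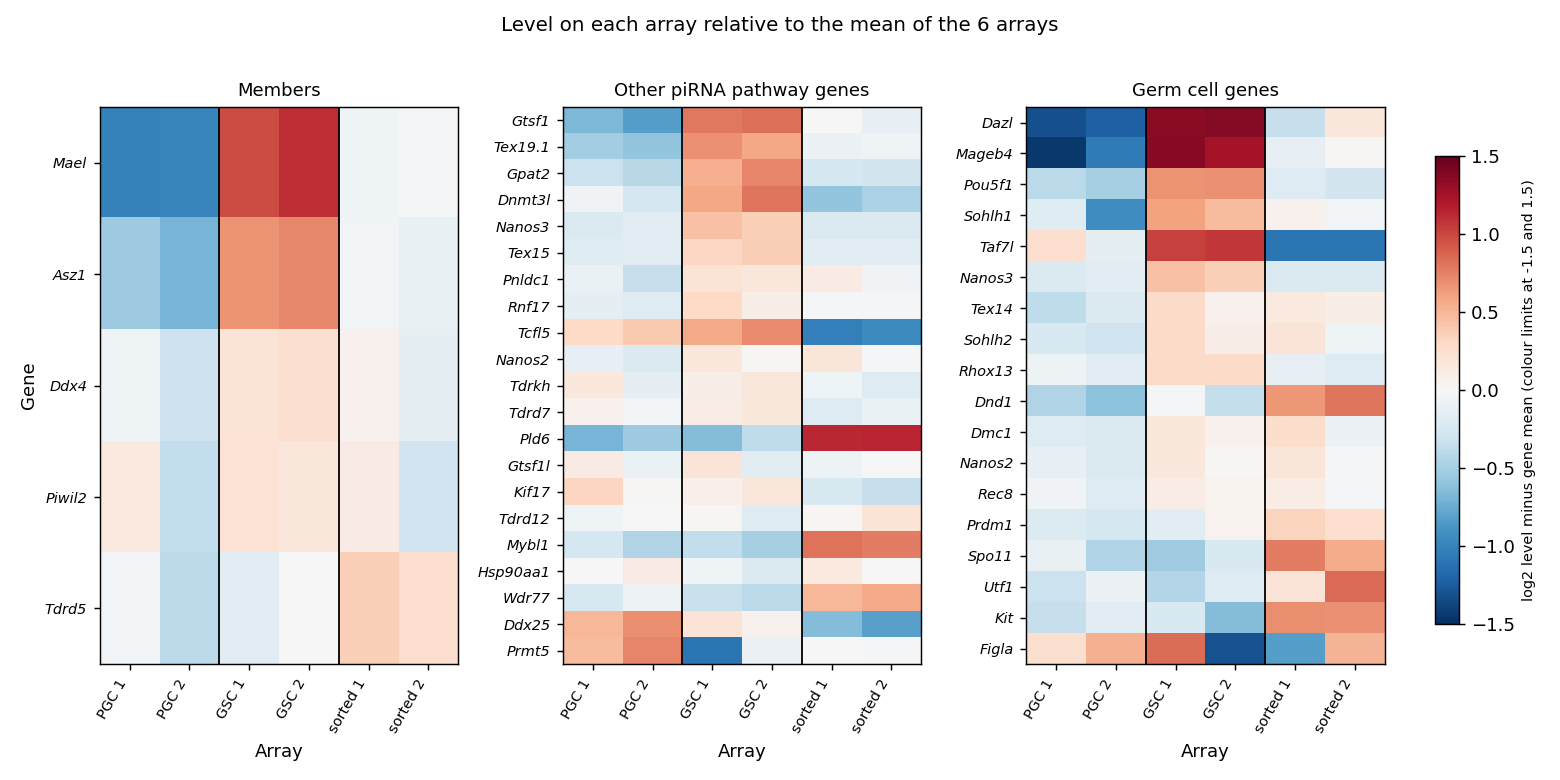
Level of each gene on each array minus that gene's mean over the 6 arrays (log2, colour, limits at -1.5 and 1.5) for the 5 members, 21 other piRNA pathway genes and 18 germ cell genes that passed the filter; rows run from highest to lowest difference of GSC from PGC colonies. Mael, Asz1, Gtsf1, Tex19.1 and Dazl are high on both GSC colony arrays and low on both PGC colony arrays, while Pld6 and Mybl1 are high in sorted cells.

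The germ cell list, which shares Nanos2 and Nanos3 with the pathway list, had the direction of the members between the colony groups. In PGC against GSC colonies 6 of 18 tested genes fell and 0 rose, with a median of -0.37 beside 0.01 over all genes. The share called was 33.3%, beside 15.1% of all tested genes. Dazl, an RNA-binding gene of germ cells, read 7.42 and 7.51 in PGC colonies, 10.09 and 10.12 in GSC colonies, and 8.39 and 8.91 in sorted cells, and was at least 4.87-fold lower in PGC than in GSC colonies (limma adjusted p = 0.00034). Mageb4 was at least 2.99-fold lower (adjusted p = 0.00024), and Pou5f1, the pluripotency factor that primordial germ cells keep, fell by 1.13 ± 0.11 (SE; adjusted p = 0.0012). In GSC colonies against sorted cells 6 of 18 rose and 4 fell: Taf7l, a testis relative of a general transcription factor subunit, rose by 2.13 ± 0.15 (SE; adjusted p = 7.6e-05), while Kit, a receptor of differentiating spermatogonia and primordial germ cells, fell by 1.14 ± 0.16 (adjusted p = 0.0016), as did Spo11, the meiotic break enzyme, by 1.04 ± 0.18 (adjusted p = 0.0035). In PGC colonies against sorted cells 1 rose, Taf7l by 1.15 ± 0.15 (adjusted p = 0.0012), and 8 fell, among them Dnd1, a germ cell RNA-binding gene, by 1.26 ± 0.15 (adjusted p = 0.00073). With no normalization 12 rose and 2 fell in GSC colonies, and 3 rose and 4 fell in PGC colonies, each against sorted cells. With normalization the shares called were 55.6% in GSC colonies and 50% in PGC colonies, beside 47.1% and 46% of all tested genes.

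Somatic counterparts of the members gave few calls between the colony groups, 6.67% beside 15.1% of all tested genes. Of 15 tested, 1 rose and 0 fell in PGC against GSC colonies, with a median of 0.16 beside 0.01 over all tested genes: Tdrd3, a widely expressed Tudor-domain gene, rose by 0.69 ± 0.16 (SE; limma adjusted p = 0.033), a call lost in 7 of 18 alternative settings. Against sorted cells 4 rose and 3 fell in PGC colonies and 2 rose and 3 fell in GSC colonies. The shares called were 46.7% and 33.3%, beside 46% and 47.1% of all tested genes. With no normalization the counts were 7 and 1 in PGC colonies and 10 and 1 in GSC colonies, which turns the balance in GSC colonies. Mov10, the widely expressed relative of Mov10l1, fell by 1.31 ± 0.16 in PGC colonies and by 1.32 ± 0.16 in GSC colonies, each against sorted cells (adjusted p = 9e-04 and 0.00084). Snd1, a Tudor-domain gene found in most cells, rose by 1.08 ± 0.11 and 0.92 ± 0.11 in the same comparisons (adjusted p = 0.00041 and 0.00081). Ago2, the Argonaute slicer, rose by 0.74 ± 0.12 in PGC colonies against sorted cells (adjusted p = 0.0027) and by 0.41 ± 0.12 in GSC colonies (adjusted p = 0.028), where the call was lost in 4 settings.

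The genes most like Mael over the 6 arrays, by Pearson's r among the 4119 whose group means ranged over at least 0.5 of its own range, were Lgals9, Gpsm3 and Srgn, each with r = 0.998. For Asz1, among 6759 such genes, they were Lrmda, Fam110c and Gtsf1, each with r = 0.999. The arrays form 3 groups of 2, so r rests on little more than 3 group means, and 22 and 25 genes passed 0.99. Gtsf1 means were 7.67 in PGC colonies, 9.23 in GSC colonies and 8.36 in sorted cells, a range of 1.56 beside 1.31 for Asz1.

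Scaling between arrays decided several of the smaller differences from sorted cells, whose arrays were dimmer as deposited (medians of 393 and 406) than those of PGC colonies (587 and 541) and GSC colonies (606 and 558). Without normalization the median of all genes shifted to 0.42 in PGC colonies and 0.47 in GSC colonies against sorted cells, and the genes called were then 7573 higher and 1838 lower, and 8179 higher and 1732 lower. With normalization these splits were 3517 and 3594, and 3486 and 3793. Relative to that shift Mael kept, in each of the 3 comparisons, the side of the median gene that it had with normalization. Its differences without normalization were 1.54 in GSC colonies and -0.55 in PGC colonies against sorted cells.

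**Figure D4:**
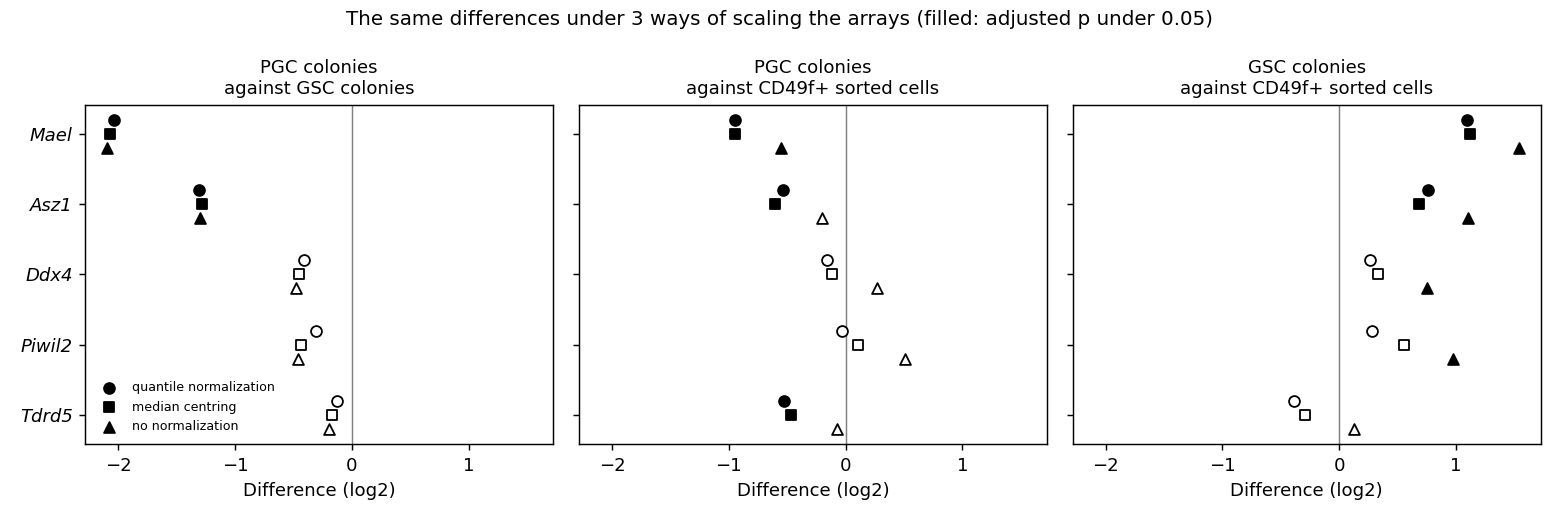
Differences (log2, horizontal axis) of the 5 tested members in the 3 comparisons under quantile normalization (circles), median centring (squares) and no normalization between arrays (triangles); filled symbols passed at adjusted p under 0.05. PGC against GSC colonies hardly moves, while without normalization all 5 members shift to the right against sorted cells and Ddx4 and Piwil2 pass in GSC colonies.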

How the data were processed

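Intensity was deposited on a linear scale for 26423 probes of 6 arrays; per the labels, 1 µg of total RNA with an integrity number of at least 6 was amplified and Cy5-labelled. For the scanner, its software and background method, the sources used here hold no statement. The deposited intensities of an array were whole numbers (within 0.05) times 1 factor, 0.863 to 1.19, and the reciprocals of the 2 factors of a group averaged 1.000. The deposited scaling thus set the arrays of a group to each other and not the groups, which leaves brightness differences between groups in place. It brought the medians of the GSC colony and sorted pairs closer and moved those of the PGC colony pair apart (587 and 541 as deposited, 582 and 546 unscaled). Values under 0 occurred on 4 arrays.

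Intensities were corrected by normexp (offset 50), turned into log2 values and brought to common quantiles. The probe table named 21876 probes, 4547 had no symbol, and 0 symbols changed through RefSeq. The brightest probe stood for a gene. All 6 arrays entered 1 limma 3.58.1 fit in R 4.3.3 (3 residual degrees of freedom), checked on simulated data, and a call needed p under 0.05 after Benjamini-Hochberg adjustment across every tested gene. The SE was 0.134 at the median gene, and precision is limited by how few arrays there are. Folds come from values with an offset and understate changes of dim genes; "at least" marks a fold against a group that is dim on both arrays, taken at the 30th percentile or its own value if higher. Members and lists were chosen with earlier results of these data known. The rule for names took the 10 members with every probe of each. From the lists of other piRNA pathway genes, somatic counterparts and germ cell genes it took, per comparison, the 2 called genes with the largest positive and the 2 with the largest negative difference, among those whose groups did not overlap. For each of the 2 tested members with the widest range of group means it took the 3 genes with the highest Pearson r over 6 arrays, among genes with at least 0.5 of that range. It also took the markers Dazl, Kit, Pou5f1 and Itga6 and the most abundant gene of each cell type list. Other names, such as the rest of the called pathway genes and the genes dim on all arrays, were added after their values were seen. Alternatives covered scaling, background, filter, probes, spread model, groups fitted, pairing and each array left out.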

Additional observations from a re-analysis of the deposited data

How the results depend on the processing

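Mael kept its direction and its call in all 3 comparisons under each of 18 alternatives, with differences of -2.31 to -1.96 in PGC against GSC colonies, -1.13 to -0.55 in PGC colonies against sorted cells and 1.02 to 1.54 in GSC colonies against sorted cells. Asz1 did so between the colony groups (-1.71 to -1.23) and in GSC colonies against sorted cells (0.68 to 1.10) where it was tested. Without normalization between arrays, 1 member was called in PGC colonies and 4 in GSC colonies against sorted cells, and Ddx4 and Piwil2 in PGC colonies (0.27 and 0.51) and Tdrd5 in GSC colonies (0.13) turned direction against sorted cells, as did Ddx6 (0.15) in PGC colonies and Smn1 (0.08) in GSC colonies. With median centring Piwil2 turned to 0.11 in PGC colonies against sorted cells. With a filter at the 50th percentile Asz1 was no longer tested, which left 1 member called between the colony groups and 1 in GSC colonies against sorted cells. Leaving out 1 array at a time gave 2 to 2, 1 to 3 and 2 to 3 members called, in PGC against GSC colonies, PGC colonies against sorted cells and GSC colonies against sorted cells, and 1445 to 2039 genes of all between the colony groups (1445 without GSC colony replicate 1, 1527 without PGC colony replicate 2, 2329 with all). The single member called in PGC colonies against sorted cells came without sorted replicate 1. Piwil2 turned in that comparison without PGC colony replicate 2 (0.23) or sorted replicate 1 (0.18), over a range of -0.29 to 0.23, and Tdrd5 between the colony groups without PGC colony replicate 2 (0.04), over a range of -0.31 to 0.04. Where one array was left, it was assumed to vary like the other groups, and for the other changes the cause was not tested.

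The labels do not say whether replicate numbers pair arrays across groups. Across the tested genes, the differences between replicates 1 and 2 correlated at -0.179 between PGC and GSC colonies. The values were 0.326 between PGC colonies and sorted cells and -0.342 between GSC colonies and sorted cells. With 1 such difference per group, these values cannot show whether arrays were paired. With a replicate block the members called were 2, 3 and 2 as before, and the genes called 1707, 6637 and 6804. Dividing out the deposited factor, an alternative chosen after seeing the data, left the members called at 2, 3 and 2. Brightness limits the rest: 5 of 10 members did not pass the filter and were left out of the main test. With no filter all 10 were tested, and 3, 4 and 3 members were called. Tdrd1 was the member added in each comparison (limma adjusted p = 0.0058, 0.042 and 0.019), with all its values under the dim mark.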

Other observations

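Several further pathway and germ cell genes, chosen after their values were seen, were dim on all 6 arrays and read highest in GSC colonies. Morc1, a silencer of transposons in male germ cells, read 6.76 and 6.68 in PGC colonies, 7.49 and 7.57 in GSC colonies, and 6.85 and 7.06 in sorted cells. Stk31, a Tudor-domain kinase gene of the germ line, read 6.78 and 6.72 in PGC colonies, 7.37 and 7.71 in GSC colonies, and 6.76 and 6.96 in sorted cells. Sall4, a transcription factor of germ and pluripotent cells, read 6.44 and 6.70 in PGC colonies, 7.64 and 7.59 in GSC colonies, and 7.43 and 7.26 in sorted cells. None of these was tested, and all their values lay under the dim mark of 7.82.

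The probe of Piwil2 read between the 94.2nd and 96.5th percentile on every array, including both PGC colony arrays, on which Dazl (7.42 and 7.51) and Dppa3 (7.55 and 7.55) were dim. Which transcripts that probe binds was not tested. Nanos2, known from spermatogonial stem cells and the male fetal germ line, likewise stayed bright, at 10.85 and 10.76 in PGC colonies, 11.14 and 10.99 in GSC colonies, and 11.16 and 10.96 in sorted cells, and was called in none of the 3 comparisons (limma adjusted p = 0.15 to 0.98).

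The CD49f gene itself, Itga6, measured 12.39 ± 0.07 in PGC colonies and 11.81 ± 0.07 in GSC colonies, against 12.18 ± 0.11 for the sorted arrays (SD over 2 arrays). It rose by 0.58 ± 0.12 (SE) in PGC against GSC colonies (limma adjusted p = 0.023) and fell by 0.37 ± 0.12 in GSC colonies against sorted cells (adjusted p = 0.042).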
